A study of Mus musculus with 18 samples.

Results

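The comparison was between left ventricles (LV) after 8 h and after 4 h of cold storage, and all genes of the 6 LV libraries labelled with these times (3 at each time) were examined, out of 18 libraries in the series. The hearts came from C57B/L6 mice of 12 weeks per the labels (the study's methods name the C57BL/6J strain, a younger range and both sexes, and the labels give no sex). They were flushed with and kept in ice-cold HTK, a histidine-tryptophan-ketoglutarate preservation solution, for 4 or 8 h, then perfused ex vivo with warm Krebs buffer for 1 h before the ventricles were frozen. Both groups therefore shared explantation, flushing and 1 h of reperfusion, and differed in the hours on ice. The buffer held no blood, so that the RNA is that of cells left in the tissue. mRNA selected from total RNA (per the study's methods) was sequenced and quantified per transcript. The 3 LV libraries at 0 h were used to estimate the spread, and the right ventricle (RV) libraries of 4 and 8 h for comparison. Nothing beyond a replicate number states that the 3 libraries of a group came from separate hearts, so that p-values measure the spread between these samples.

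Storage on ice slows metabolism while oxygen is absent, and transcription resumes when the heart is rewarmed and perfused. Immediate early genes, which encode transcription factors and signalling brakes such as Fos, Egr1 and Dusp6, are switched on within minutes of such a stimulus and their short-lived RNA is then cleared. Interferon-induced genes, in contrast, are switched on by secreted interferons through transcription factors that enter the nucleus, and encode chemokines, antiviral proteins and the antigen presentation machinery. Heart muscle is rich in mitochondria and draws most of its energy from fatty acid oxidation.

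The LV libraries of 4 and 8 h held between 22552581 and 32816675 estimated counts, with the lowest in number 3 at 8 h. Values are given as CPM, the counts of a gene per 1e6 counts of the library after TMM scaling, in the order of the replicate numbers 1, 2 and 3. Libraries of the same number at 4 and 8 h deviated from their group means in the same direction across 14564 tested genes, with a Pearson r of 0.49, 0.51 and 0.67 for numbers 1, 2 and 3, whereas those of different numbers ranged from -0.63 to 0.36. The 2 libraries numbered 3 had very little RNA of the Y-linked gene Ddx3y (1.49 CPM at 4 h and 2.48 CPM at 8 h, against 68.2 to 100.5 CPM in the other 4 libraries) and the highest levels of the interferon-induced genes described here at both times. Sex, day and any other property that goes with a number cannot be told apart. Because a heart was stored for a single time, the numbers do not pair samples of the same heart, but they do pair libraries that deviated together. The total of called genes is therefore given without and with the number as a block, and tests of single genes mostly with it.

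A call needed a fold change above 1.5 and an adjusted p (Benjamini-Hochberg) below 0.1. No gene was called with edgeR in the 9 LV libraries when the numbers were ignored: 0 of 14564 genes were higher and 0 lower at 8 h (0%), the smallest adjusted p was 0.531, and 1180 genes had an unadjusted p under 0.05. Of these, 464 were higher (3.19% of tested genes) and 716 lower (4.92%). DESeq2 on the same libraries called 8 higher and 63 lower genes. When the replicate number was a block in the 6 libraries of 4 and 8 h, edgeR called 255 of 14256 genes higher (1.79%) and 140 lower (0.982%), with a smallest adjusted p of 0.00649. This fit leaves 2 residual degrees of freedom per gene. The same block in all 9 LV libraries called 0 genes higher and 1 lower, with 1838 at an unadjusted p under 0.05; the 0 h libraries did not follow the numbers. Without both libraries numbered 2 it called 23 higher and 24 lower genes, and without those numbered 1 or 3 it called 310 and 272 higher and 143 and 344 lower genes. Below, "rose" and "fell" refer to genes called in the blocked fit of 6 libraries.

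Interferon-induced genes were more frequent among the genes that rose than among all tested genes. Most genes that rose belonged to no list: 82 of the 255 were in any list used here, against 657 of all 14256 tested genes. Of the 255 genes, 70 belonged to the lists of the type I interferon response, the interferon gamma response and the interferon regulatory factors and nucleic acid sensors, and none of the 140 genes that fell did. Of all 14256 genes tested in this fit, 105 belonged to these lists. Of 48 tested members of the type I list, 40 rose and 0 fell (against 1.79% and 0.982% of all tested genes). All 3 same-numbered pairs were higher at 8 h in 46 members (against 21.5% of all tested genes). The median log2 difference without the block was 0.78 for this list and 0.03 for all tested genes. Of 35 members of the interferon gamma list, 26 rose and 0 fell, with a median log2 difference of 0.89. Without both libraries numbered 2, 2 members of the type I list and 4 of the interferon gamma list were called. With the length trend described below removed, the blocked fit called 29 of the type I list and 23 of the interferon gamma list. In neither list were the groups of 4 and 8 h separate for any gene, and in the genes shown the library numbered 3 at 4 h exceeded those numbered 1 and 2 at 8 h (5.44% of all tested genes were higher at 8 h without overlap).

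Cxcl9, a chemokine that draws T cells and is induced by interferon gamma (chr5:92321347-92328079, GRCm38), was at 23.8, 16.5 and 289 CPM at 4 h and at 122, 114 and 677 CPM at 8 h, and was between 4.88 and 7.23 CPM at 0 h. Each pair rose, by 5.12, 6.89 and 2.34-fold, and the blocked log2 difference was 2.11 ± 0.27 (SE; edgeR adjusted p = 0.0181), against 1.47 ± 1.06 (adjusted p = 0.707) when numbers were ignored. Its neighbour Cxcl10 (chr5:92346638-92348889) went from 86.5, 82.3 and 1152 to 178, 281 and 1660 CPM, with a blocked log2 difference of 1.11 ± 0.23 (adjusted p = 0.0618). Gbp2, a guanylate-binding GTPase of cell-autonomous defence, went from 72.3, 50.5 and 581 to 139, 171 and 1201 CPM, a rise of 2.38-fold in the blocked fit (adjusted p = 0.0262). In all 3 genes the library numbered 3 stood several-fold above the others at either time, and its fold step was the largest of the 3 pairs in none of them. When the library numbered 3 at 8 h alone was left out and numbers were ignored, the log2 difference of Gbp2 turned to -0.59 and that of Cxcl10 to -0.94.

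Effectors, regulators and antigen presentation genes also rose. The antiviral gene Ifit1 was at 89.1, 61.1 and 517 CPM at 4 h and at 125, 202 and 829 CPM at 8 h, and Isg15, a ubiquitin-like modifier, at 42.0, 28.2 and 192 CPM and at 55.9, 62.3 and 324 CPM. Irf7, the factor that amplifies interferon production, was at 35.6, 23.4 and 185 CPM and at 47.4, 51.2 and 360.2 CPM. Their blocked adjusted p values were 0.098, 0.0595 and 0.0512. For Isg15 the log2 difference without the block was 0.75 ± 0.81 (edgeR adjusted p = 0.792). With the length trend removed, Isg15 was no longer called in the blocked fit (adjusted p = 0.135). Bst2 (tetherin), Oas2 (an oligoadenylate synthetase) and Mx1 rose by 1.70, 1.76 and 1.56-fold. B2m, the light chain of MHC class I, went from 197, 181 and 389 to 282, 298 and 670.4 CPM, and Psmb10, a subunit of the immunoproteasome, from 29.0, 18.9 and 47.9 to 44.2, 32.5 and 102 CPM, with blocked log2 differences of 0.67 ± 0.13 and 0.83 ± 0.13. The non-classical class I gene H2-T23 rose by 1.61-fold; class I genes are similar in sequence, and the share of reads between them is uncertain. Among 22 regulators and sensors, 4 rose (1.79% of all tested genes): Irf7, Dhx58 and Cgas, which sense RNA and DNA, and Tmem173 (STING), the adaptor that acts after Cgas.

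**Figure D1:**
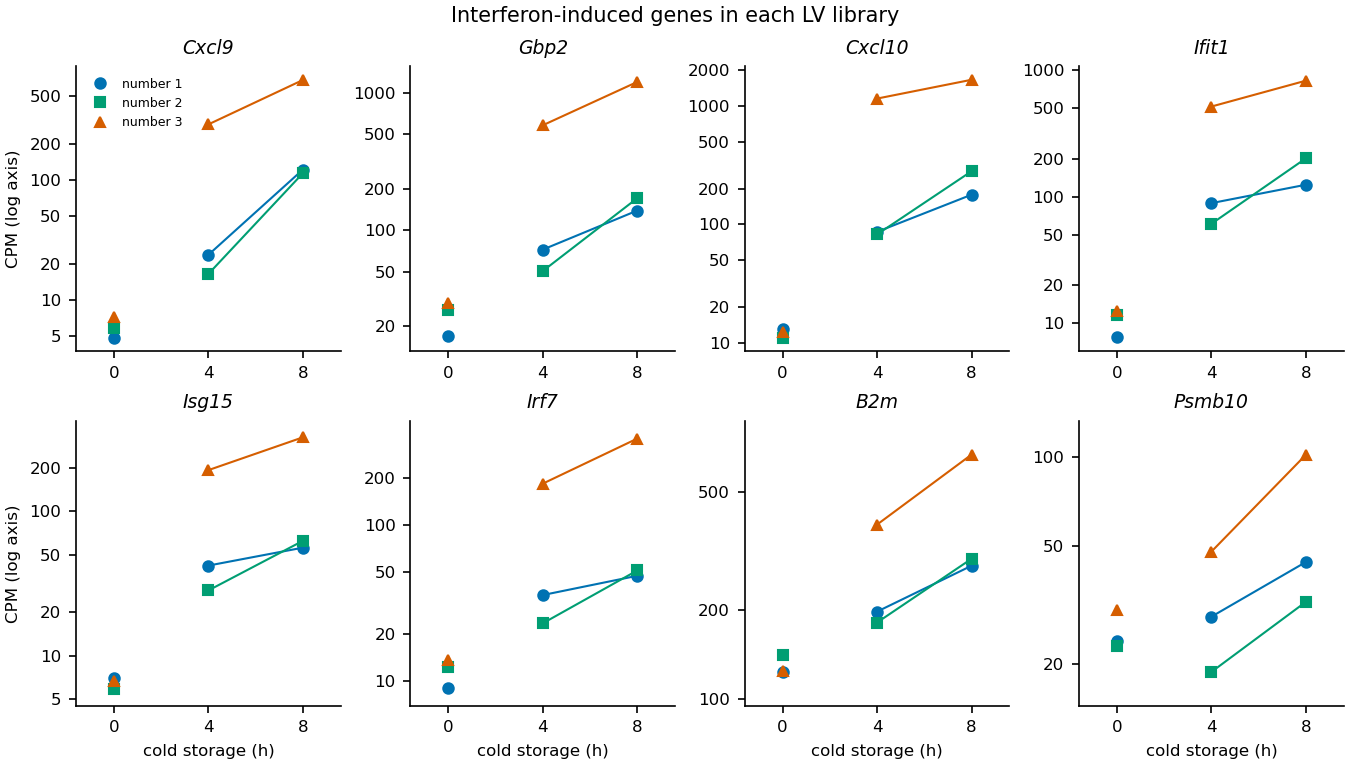
Expression of 8 interferon-induced genes (CPM, log axis) in each LV library by hours of cold storage; symbols and colours mark the replicate number, and lines join libraries of the same number at 4 and 8 h. Every line rises, while the library numbered 3 at 4 h lies above numbers 1 and 2 at 8 h, as in Gbp2 (581 against 139 and 171 CPM).

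Of 8 tested interferons and receptors, 0 rose and 1 fell (1.79% and 0.982% of all tested genes). The gene that fell was Ifnb1 (interferon beta), which was low throughout. It was at 5.28, 3.25 and 1.19 CPM at 4 h and at 1.87, 1.37 and 0.73 CPM at 8 h (blocked log2 difference -1.22 ± 0.25, adjusted p = 0.0629). Number 3, with the most RNA of interferon-induced genes, had the least Ifnb1 at both times. The summed share of 10 macrophage markers was 0.0309%, 0.0345% and 0.0221% of counts at 4 h and 0.0504%, 0.032% and 0.0273% at 8 h (exact permutation test, two-sided, p = 0.5). All 10 had a positive log2 difference (median 0.33, against 0.03 for all genes), and 6 were higher in all 3 pairs (21.5% of all tested genes). Of them 1 rose (1.79% of all tested genes), the interferon-inducible receptor Fcgr1. The part of macrophage RNA in the interferon results was not tested. In bulk tissue, fewer cells of a type and less RNA per cell cannot be told apart.

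Some of these genes have, in their promoters, the sequence that interferon-activated factors bind. The interferon-stimulated response element was searched as GAAA, any 2 bases and GAAA, on both strands in RefSeq promoter windows (GRCm38.p6, 250 bases before to 50 after each start). It was found in 20 of 46 windows of the type I list (43.5%) and in 60 of 227 windows of the genes that rose (26.4%). The share was 3.44% of all 32851 windows, and 3 of 138 windows of the genes that fell had it. Windows of 1 chromosome were left out of every set. All windows covered 27025 genes and were not limited to tested genes, so that this background differs in kind from the genes called. The promoters of 3 genes that rose and of Srf, which fell (below), are shown from base -130 to -21 before the start, with matches in capitals. Isg15 (chr4:156200839-156200948, minus strand) has 3 overlapping matches, Ifit1 (chr19:34640759-34640868, plus strand) 2 and Gbp2 (chr3:142620533-142620642, plus strand) 1. In the Srf promoter (chr17:46556183-46556292, minus strand) the capitals mark 2 CArG boxes, the site bound by SRF itself. CArG boxes were found in 8 of 138 windows of the genes that fell, in 2 of 227 windows of those that rose and in 1.63% of all windows. A gene can have several windows: counted by gene, they were in 5 of 106, in 2 of 184 and in 1.81% of all genes. A match is a description of the letters and not evidence of binding.
Isg15: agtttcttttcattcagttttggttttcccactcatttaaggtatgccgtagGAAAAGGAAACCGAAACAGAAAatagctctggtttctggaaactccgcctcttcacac
Ifit1: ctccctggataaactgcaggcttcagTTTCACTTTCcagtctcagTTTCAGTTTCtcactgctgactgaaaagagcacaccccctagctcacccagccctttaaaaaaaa
Gbp2: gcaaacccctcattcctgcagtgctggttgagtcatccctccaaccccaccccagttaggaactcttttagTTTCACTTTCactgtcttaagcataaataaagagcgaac
Srf: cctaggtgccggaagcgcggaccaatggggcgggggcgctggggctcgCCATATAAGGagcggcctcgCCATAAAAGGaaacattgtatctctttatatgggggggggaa

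Of 28 cytokines and chemokines, 2 rose and 1 fell (1.79% and 0.982% of all tested genes), and the median log2 difference without the block was -0.06. The largest was 0.98, as the chemokine Cxcl9, which rose (above), is no member of this list. Without both libraries numbered 3, 7 were called lower, and without those numbered 2, 0 were called. Il6 was at 155, 73.3 and 135 CPM at 4 h and at 196, 154 and 262 CPM at 8 h, with a blocked log2 difference of 0.79 ± 0.16 (adjusted p = 0.0629). Il1rn, the secreted antagonist of interleukin 1, rose by 1.54-fold. Tnf went the other way, from 84.3, 77.2 and 60.2 to 37.0, 37.3 and 53.5 CPM (-0.81 ± 0.19, adjusted p = 0.0962). Of 18 inflammasome and Toll genes, Casp1 alone rose, from 2.48, 3.51 and 11 to 4.15, 4.90 and 23.2 CPM. Of 22 NF-kB feedback genes, Tnip3, an inhibitor of NF-kB, rose from 6.26, 7.39 and 12.0 to 16.1, 25.3 and 13.8 CPM. Of 28 cell death genes, Apaf1, the scaffold of the apoptosome, and Mlkl, the effector of necroptosis, rose by 1.52 and 1.79-fold and 0 fell. With the length trend removed, Il1rn, Apaf1 and Mlkl were still called, and Il6, Tnf, Casp1 and Tnip3 were not. Without both libraries numbered 2, none of the inflammasome, NF-kB and cell death genes was called.

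Neutrophil markers were near the limit of detection, and 3 of 8 could be tested. S100a8 was at 0.126, 0.163 and 0.0745 CPM at 4 h and at 3.12, 0.720 and 0.827 CPM at 8 h, and S100a9 at 0.189, 0.195 and 0.745 CPM and at 6.45, 0.960 and 1.99 CPM. Both rose in the blocked fit (edgeR adjusted p = 0.0291 and 0.0697), and the groups did not overlap (5.44% of all tested genes). In this fit both needed their values at 8 h to pass the expression filter. The test and the separation of the groups therefore give no support of their own. The remaining tested marker had a log2 difference of 0.53 without the block and was not called. With the length trend removed the adjusted p of S100a9 was 0.147, and S100a8 was still called. The erythroid gene Hbb-bs also rose, from 38.6, 5.76 and 3.57 to 100.1, 6.58 and 16.7 CPM, so that the library numbered 1 was highest in both kinds of blood cell RNA at 8 h. Its part in the other results was not tested.

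Immediate early genes were lower after 8 h than after 4 h. Of 36 tested members, 10 fell and 0 rose, 35 had a negative log2 difference, and the median without the block was -0.57. The background was 0.982% of genes called lower. All 3 pairs were lower in 16 members (19.5% of all tested genes), and the groups were separate in 7 (7.59%). Without both libraries numbered 3, 31 of 36 members were called lower; in Ccn1, Ccn2, Nr4a1, Fos and Dusp6 the step was smallest in number 3. Without those numbered 2, 0 were called. With the length trend removed, the blocked fit called 7 lower. DESeq2 without the block also called 7 lower, and it called 0 members of the type I and interferon gamma lists.

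Srf, the transcription factor that drives many immediate early genes and contractile genes, was at 196, 202 and 189.5 CPM at 4 h and at 119.98, 119 and 115 CPM at 8 h. The groups lay far apart, and the blocked log2 difference was -0.73 ± 0.11 (adjusted p = 0.0306). Ccn1 and Ccn2, secreted matrix proteins induced by stretch and SRF or YAP, went from 567, 774 and 818 to 171, 219 and 439 CPM and from 363, 330.1 and 232 to 119, 96.7 and 143 CPM. Nr4a1, an orphan nuclear receptor, was even across the libraries of 4 h (541, 533 and 559 CPM) and spread at 8 h (111, 175 and 325 CPM), with a blocked log2 difference of -1.56 ± 0.26 (adjusted p = 0.0357). Its relative Nr4a3 fell from 241, 219.7 and 146 to 55.7, 72.8 and 104 CPM. Fos went from 794, 1080 and 1461 to 298, 401 and 971 CPM (adjusted p = 0.038), Btg2, an antiproliferative gene, fell by 1.28 on the log2 scale, and the MAP kinase phosphatase Dusp6 went from 85.2, 71.0 and 76.4 to 29.6, 34.7 and 46.1 CPM. Dusp10, another MAP kinase phosphatase, went from 23.9, 23.1 and 15.4 to 5.24, 5.0 and 10.7 CPM. Egr1 did not pass, at 1216, 1100 and 1559 CPM and 562, 644 and 1384 CPM (adjusted p = 0.142).

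**Figure D2:**
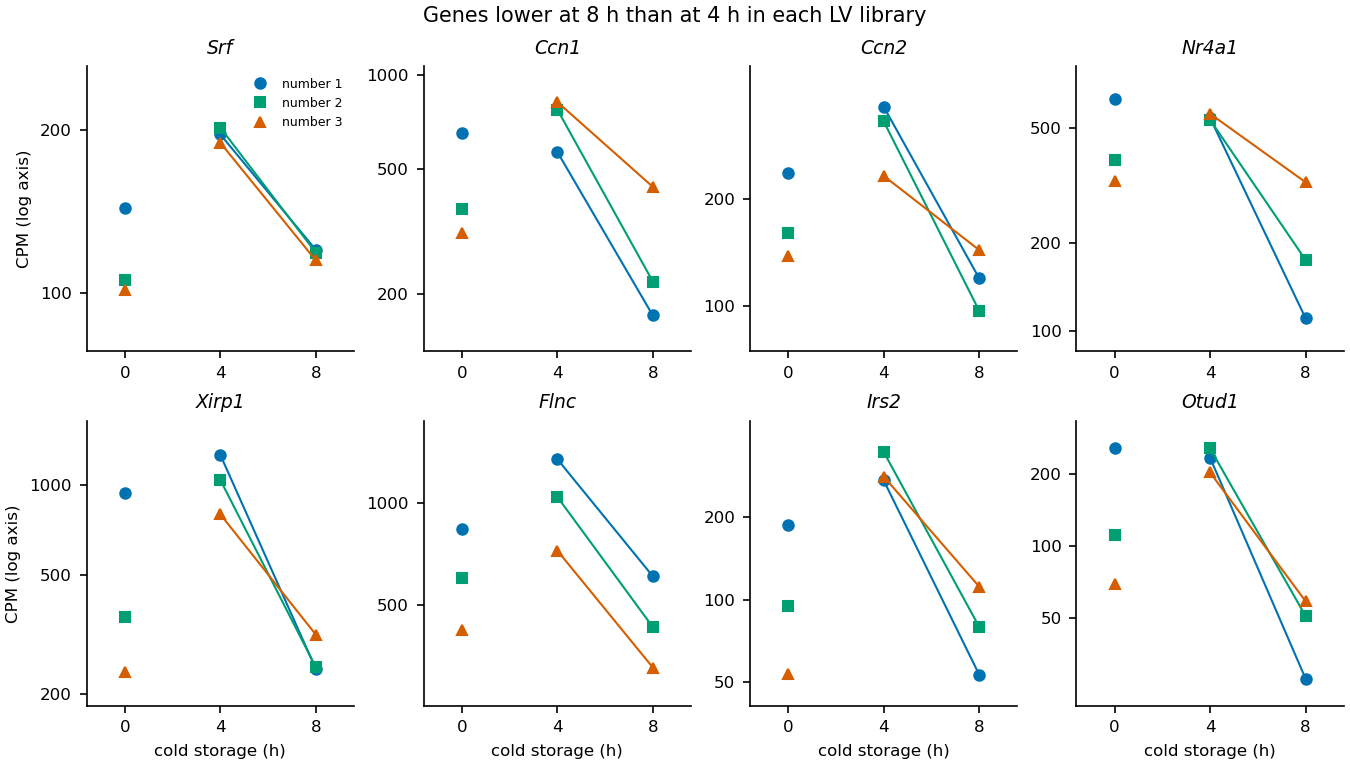
Expression of 8 genes that were lower at 8 h (CPM, log axis) in each LV library by hours of cold storage; symbols and colours mark the replicate number, and lines join libraries of the same number at 4 and 8 h. Every line falls and no library of 8 h reaches the lowest of 4 h, as in Otud1 (203 CPM at the lowest of 4 h and 58.7 CPM at the highest of 8 h).

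Other genes that fell included regulators of signalling and transcription. Otud1, a deubiquitinase (chr2:19657752-19660583; chosen after its values were seen), was at 257, 111 and 69.0 CPM at 0 h, at 234, 256 and 203 CPM at 4 h and at 27.8, 50.9 and 58.7 CPM at 8 h, with a blocked log2 difference of -2.39 ± 0.23 (adjusted p = 0.0164). Irs2, the insulin receptor substrate (also chosen after its values were seen), went from 273, 346 and 282 to 53.2, 79.6 and 112 CPM. Ypel2 (chr11:86936425-86993707) went from 55.5, 60.0 and 38.7 to 17.2, 13.9 and 11.4 CPM, with the smallest adjusted p of the blocked fit (0.00649) and one under the threshold also without the libraries numbered 2 (0.0257). Cited2, a modulator of CBP/p300 and hypoxia signalling, went from 109.6, 136 and 124 to 46.7, 52.7 and 67.0 CPM. Irf2bpl went from 87.0, 113 and 98.3 to 37.4, 40.9 and 47.8 CPM, and the mitochondrial pyrimidine nucleotide carrier Slc25a36 from 113, 122 and 76.1 to 34.6, 46.8 and 37.5 CPM. With edgeR and without block these genes were also lower (log2 differences from -2.34 to -1.15, SE from 0.16 to 0.46), but no adjusted p of edgeR was below 0.531.

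At 0 h several of the same genes lay between the other times or near the level of 8 h. Srf was at 143, 105 and 101 CPM at 0 h, Ccn2 at 237, 160.0 and 138 CPM, Dusp6 at 28.2, 19.4 and 33.7 CPM and Irf2bpl at 63.3, 41.1 and 45.1 CPM. Cited2 lay between the other times in each library of 0 h (76.6, 99.5 and 87.3 CPM), above all libraries of 8 h and below all of 4 h. Otud1, Irs2 and Nr4a1 varied at 0 h, with the highest value in number 1 each time.

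Of 24 sarcomere genes, 20 had a negative log2 difference (median -0.27), 7 had an unadjusted p under 0.05 with lower values at 8 h (4.92% of all tested genes), and 8 were lower without overlap (7.59%). Their summed share was 8.84%, 8.32% and 8.67% of counts at 4 h and 7.18%, 7.07% and 5.81% at 8 h (exact permutation test, two-sided, p = 0.1, the smallest possible). Xirp1, a protein of the Z-disc and intercalated disc induced by muscle damage (chr9:120013755-120023598), was at 942, 363 and 238 CPM at 0 h, at 1258, 1038 and 797 CPM at 4 h and at 243, 246 and 316 CPM at 8 h, with a blocked log2 difference of -1.93 ± 0.21 (adjusted p = 0.0164). It was the only member called with the block (0.982% of all tested genes were called lower). Flnc (filamin C), which binds XIRP1 and is no member of the list, went from 1354, 1046 and 724 to 607, 429 and 325 CPM (-1.20 ± 0.14, adjusted p = 0.0164), and was the only gene called with the block in all 9 LV libraries.

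Calcium handling and ion channel genes had a median log2 difference of -0.41 without the block, and of 19 members 2 fell and 1 rose (0.982% and 1.79% of all tested genes). Ryr2, the calcium release channel, went from 1469, 2011 and 1351 to 903, 1277 and 623 CPM (-0.82 ± 0.16, adjusted p = 0.0512), and Kcnd2 also fell, while the potassium channel gene Kcna5 rose. With the length trend removed, Ryr2 and Kcnd2 were no longer called (adjusted p = 0.122 and 0.172), without both libraries numbered 2, 0 members were, and DESeq2 with the block called 5 lower. Atp2a2 (SERCA2a), the calcium pump, was at 14404, 15098 and 14700 CPM at 4 h and at 9457, 11436 and 7660 CPM at 8 h without overlap, but did not pass (adjusted p = 0.121). Cacna1c and Kcnq1, which carry the L-type calcium and slow potassium currents, had blocked log2 differences of -0.58 and -0.47 and were below the fold threshold.

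Myh6, the main myosin heavy chain of the mouse ventricle, was at 34208, 30332 and 33991 CPM at 4 h and at 23451, 24351 and 19341 CPM at 8 h. Its log2 difference of -0.55 ± 0.13 (adjusted p = 0.551) turned to 0.14 when the effective length of the transcripts assigned was used as an offset. That length was 3239, 4056 and 3176 bases at 4 h and 2088, 3011 and 1613 bases at 8 h, so that counts moved to shorter annotated transcripts of the gene. The part of RNA quality in this shift was not tested. Of 9957 genes with a mean of at least 5 CPM, the mean effective length was shorter at 8 h without overlap in 373 and longer in 830. The summed share of 6 cardiomyocyte markers was 4.92%, 4.66% and 4.85% of counts at 4 h and 3.63%, 3.73% and 2.99% at 8 h, with an exact permutation p (two-sided) of 0.1, the smallest that 3 against 3 allows. Myh6 made up most of this sum in each library, so that the share rests largely on 1 gene. The 6 markers together were at 50585, 45482 and 50981 CPM at 4 h and at 35946, 39435 and 32700 CPM at 8 h. Markers of other cell types went both ways. The log2 difference was above 0 in 8 of 8 fibroblast (median 0.24), 7 of 8 mural (0.28) and 8 of 9 endothelial markers (0.23), and none of these was called. It was above 0 in 0 of 5 mesothelial (median -0.51) and 0 of 2 lymphocyte markers (-0.67). The part of these cell types in the lower values of muscle and fatty acid oxidation genes was not tested.

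Fatty acid oxidation genes were lower and RNA of the mitochondrial genome was higher. Of 33 fatty acid oxidation and PPAR target genes, 17 had an unadjusted p under 0.05 with lower values at 8 h and 0 with higher (background 4.92% and 3.19%), 16 were lower without overlap (7.59%), and the median log2 difference was -0.36. Pdk4, the kinase that shuts off pyruvate dehydrogenase, was the only member called, from 937, 1149 and 1850 to 618, 585 and 884 CPM (adjusted p = 0.0405). Of all tested genes, 0.982% were called lower. Etfdh, which passes electrons from fatty acid oxidation to ubiquinone, was at 583, 518 and 588 CPM and at 354, 473 and 306 CPM (-0.60 ± 0.18, adjusted p = 0.157). Cpt2, which completes the import of fatty acids, was at 199.96, 205 and 241 CPM and at 132, 179 and 133 CPM, and Acadvl, the very long chain acyl-CoA dehydrogenase, at 1109, 847 and 1057 CPM and at 753, 764 and 637 CPM. These steps were smallest in number 2. The coactivator Ppargc1b fell from 25.8, 21.8 and 22.5 to 15.3, 11.7 and 14.9 CPM (adjusted p = 0.0321). The median was the same (-0.36) with the length trend described below removed.

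Genes of the mitochondrial genome took 26.3%, 26.4% and 24.9% of counts at 4 h and 32.0%, 34.4% and 33.4% at 8 h. The difference in means was 7.42 percentage points (25.9% ± 0.84 and 33.3% ± 1.2, SD, n = 3), with an exact permutation p of 0.1 (two-sided), the smallest possible. At 0 h they took between 24.1% and 28.3%. All 13 protein-coding mitochondrial genes had a positive log2 difference (median 0.40) and 10 were higher without overlap (5.44% of all tested genes). None was called by edgeR without or with the block, and DESeq2 called 1, mt-Nd3, in both. Complex III's mt-Cytb was at 26461, 26358 and 27766 CPM and at 33625, 37248 and 38032 CPM (0.43 ± 0.10, adjusted p = 0.551 without the block). The complex I gene mt-Nd3 went from 2472, 1672 and 1674 to 2599, 3433 and 3298 CPM. The 46 nuclear genes of the respiratory chain had a median of -0.01, 8 had an unadjusted p under 0.05, all lower (4.92% of all tested genes), and 10 were lower without overlap (7.59%). Their median was -0.15 with the length trend removed and -0.32 in RV. Because CPM are shares of a total, a higher mitochondrial share and lower nuclear RNA of muscle cells cannot be told apart here.

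**Figure D3:**
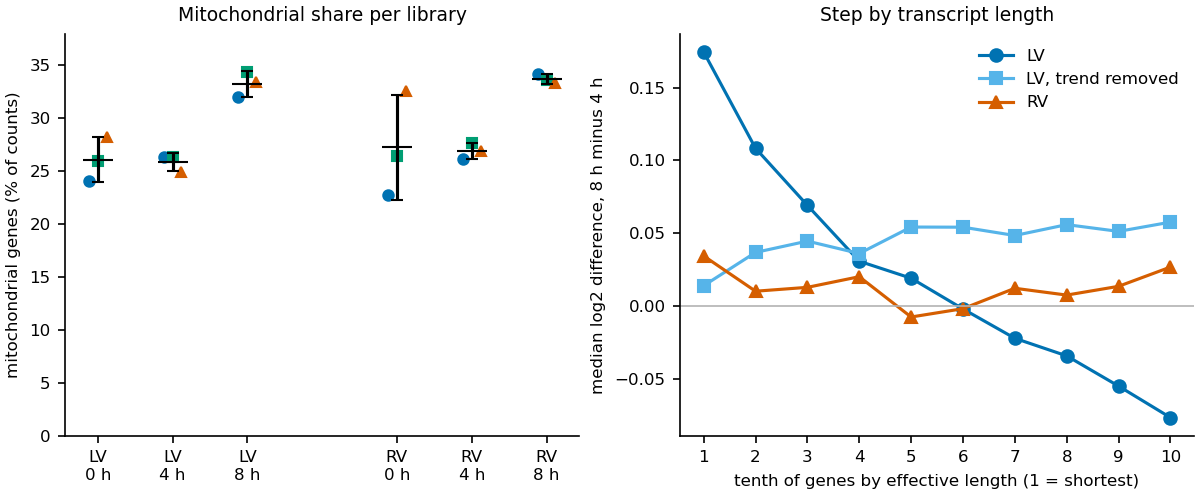
Left, mitochondrial genes as percent of counts in each LV and RV library by hours of cold storage, with the mean and SD in black and colours for the replicate number; the 8 h libraries lie between 32.0% and 34.4% in LV and those of 4 h between 24.9% and 26.4%. Right, median log2 difference of 8 h minus 4 h in 10 equal groups of tested genes by effective length, which falls from 0.17 to -0.08 in LV and stays between -0.01 and 0.03 in RV.

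All 66 tested cytosolic ribosomal protein genes had a positive log2 difference (median 0.26), and all 3 pairs were higher in 63 (21.5% of all tested genes), but none was called by edgeR or DESeq2, without or with the block. Rpl3 was at 139, 113 and 143 CPM and at 208, 132 and 194 CPM, and Rpl11 at 65.2, 63.1 and 76.4 CPM and at 85.9, 81.8 and 87.1 CPM. Reads of ribosomal protein genes are shared with pseudogenes, and their assignment is uncertain. These genes are short, and the LV step as a whole depended on length: the median log2 difference was 0.17 in the first of 10 equal groups of genes ordered by effective length, the shortest, and fell in each group to -0.08 in the longest. With this trend removed, the ribosomal median was 0.08, next to 0.05 for all tested genes. In the same blocked fit 192 genes were called higher and 68 lower, against 255 and 140 with the trend. The genes that fell had a median effective length of 3338 bases, those that rose 1750 and all tested genes 2301.

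Fewer genes were called in the other lists, beside 0.982% of all genes called lower and 1.79% higher. Of 19 clock genes, 2 fell, the repressors Nr1d1 (121, 138 and 210.3 to 53.6, 47.5 and 142 CPM) and Nfil3. Of 23 heat shock genes, 2 fell, the heat shock factor Hsf2 (14.8, 15.4 and 16.3 to 9.91, 9.94 and 10.5 CPM) and the co-chaperone Dnajb4. Endothelin 1 (Edn1), a vasoconstrictor made by endothelium, went from 15.8, 25.1 and 17.7 to 6.92, 5.14 and 11.8 CPM and was the only one called of 22 endothelial activation genes. With the length trend removed, Nr1d1 was still called, and Nfil3, Hsf2, Dnajb4 and Edn1 were not. No member was called among 8 cold-inducible RNA-binding proteins, 25 unfolded protein and integrated stress response genes or 16 NRF2 targets. Without both libraries numbered 3, 6 clock, 8 heat shock, 5 endothelial activation, 8 unfolded protein response and 3 NRF2 genes were called lower, and without those numbered 2, 0 were. Of 27 hypoxia and glycolysis genes, 1 rose (Pfkfb3) and 0 fell, and 8 were lower without overlap (7.59% of all tested genes), among them Pfkm and Vegfa.

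Outside the interferon lists, Ly6c1, a surface protein of endothelium and monocytes, rose from 68.9, 55.9 and 64.8 to 142, 106 and 135 CPM without overlap (1.01 ± 0.11, blocked adjusted p = 0.0164; reads can be shared with its near-identical neighbour Ly6c2). The class II gene H2-Aa rose from 40.2, 30.1 and 30.1 to 51.2, 56.2 and 48.9 CPM. Both were chosen after their values were seen. Among protein-coding genes higher without overlap, those with the smallest unadjusted p included Rrnad1 (6.16, 6.25 and 6.07 to 10.7, 9.56 and 10.0 CPM), B4galt4, a galactosyltransferase (9.65, 10.8 and 11.3 to 17.6, 15.0 and 20.5 CPM), and the kinase Stk16, and their steps were below 1.7-fold. Among the genes lower without overlap, Oplah, the oxoprolinase of glutathione turnover, went from 68.7, 65.2 and 71.5 to 42.5, 47.6 and 45.8 CPM.

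**Figure D4:**
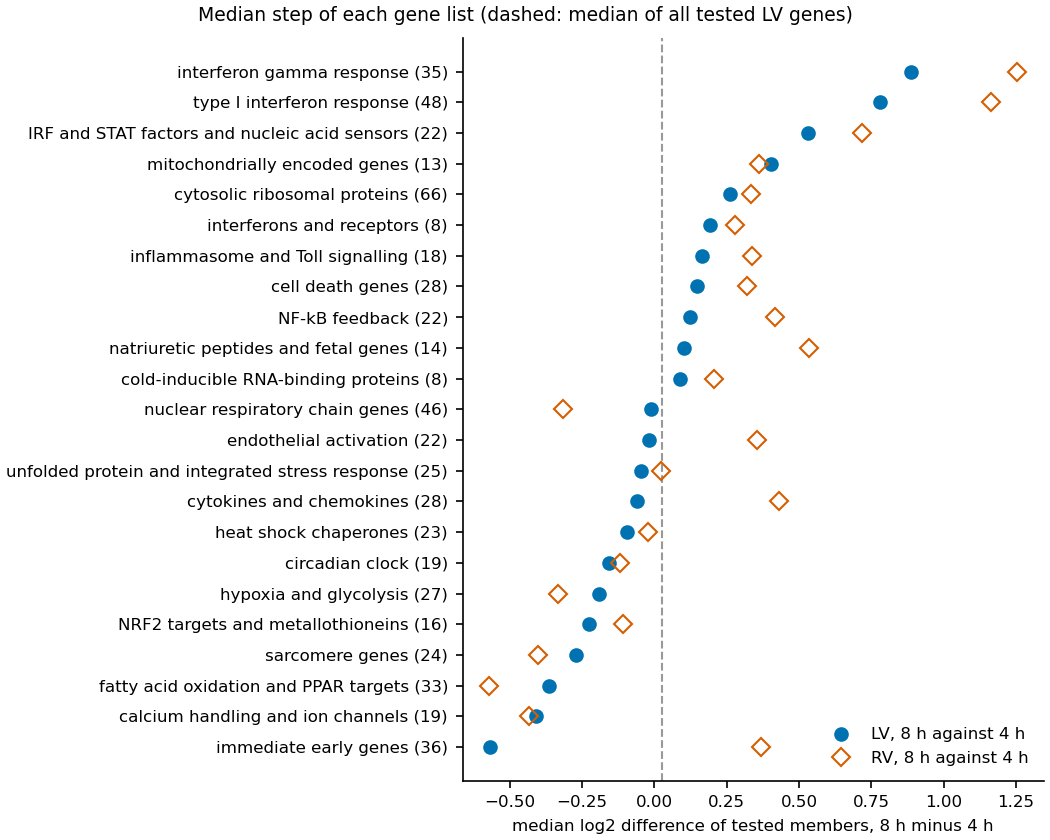
Median log2 difference of 8 h minus 4 h for 23 gene lists (number of tested LV members in brackets) without the block, in LV (filled) and RV (open); the dashed line is the median of all tested LV genes, 0.03. The type I interferon, interferon gamma, and interferon regulatory factor and sensor lists are at the top in both ventricles. Interferons and receptors are at 0.19 in LV and 0.28 in RV, and immediate early genes at -0.57 in LV and 0.37 in RV.

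The same step was also measured in RV. The blocked fit of the 6 RV libraries called 222 of 14202 genes higher (1.56%) and 16 lower (0.113%). Of the genes that rose in LV, 154 also rose in RV (60.4% of the LV genes and 69.4% of the RV genes), and of those that fell in LV 13 also fell in RV (9.29% and 81.2%). Of the 140 genes that fell in LV, 128 had a negative and 11 a positive log2 difference in RV. The median log2 difference of the fatty acid oxidation list was -0.57 in RV, that of the mitochondrial genome 0.36 and that of the immediate early genes 0.37. The ventricles of a heart share its storage and perfusion and are not independent samples.

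**Figure D5:**
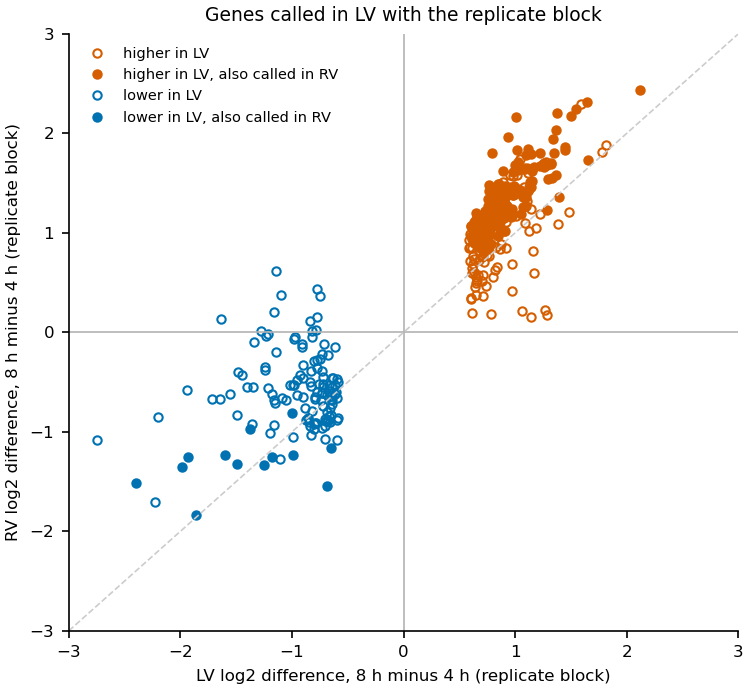
Log2 difference of 8 h minus 4 h with the replicate block in LV (horizontal) and RV (vertical) for genes called in LV and tested in RV; filled points were also called in RV, the dashed line marks equal steps, and 4 of 389 genes lie outside the axes. The 250 genes that rose in LV and were tested in RV were above 0 in RV (median 1.17), and of the genes that fell in LV 128 were below 0 in RV and 11 above.

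The difference between the LV step and the RV step was tested itself. Without pairing, 0 genes were called with edgeR in the 18 libraries, and 215 had an unadjusted p under 0.05. With ventricles of the same time and number taken as the same heart, which the labels do not state, 54 genes had a lower step in LV than in RV (0.358%) and 5 a higher step (0.0331%). The former included heat shock chaperones. Hspa1a, the inducible HSP70, was at 1124, 1261 and 1288 CPM at 4 h and at 587, 512 and 2289 CPM at 8 h in LV, and at 633, 452 and 361 CPM and at 887, 879.7 and 2926 CPM in RV. It was thus lower at 8 h in 2 of 3 LV pairs and higher in every RV pair (difference of the steps -1.96 ± 0.30, adjusted p = 0.0629). Ptgs2, the inducible cyclooxygenase, was at 118, 137 and 125 CPM and at 84.4, 93.0 and 159 CPM in LV, and at 134, 181 and 108 CPM and at 249, 246 and 318 CPM in RV (-1.19 ± 0.18, adjusted p = 0.0611). For Isg15 the step was smaller in LV by 0.68 ± 0.11 on the log2 scale (adjusted p = 0.0632).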

How the data were processed

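RNA of 18 mouse ventricle libraries had been quantified by the authors with Kallisto by pseudoalignment to GRCm38 transcripts. The authors deposited estimated counts (expected_counts) and TPM values per transcript, neither normalized between libraries beyond the TPM scaling. TPM values were not tested, and served only to weight the transcripts of a gene in its mean effective length. That length entered the length offsets and the length trend. Groups were taken from the labels. Estimated counts were summed to GENCODE M21 genes by transcript identifier (1259 of 111462 transcripts had no match) and rounded. Genes passing filterByExpr were scaled by TMM and tested with edgeR 4.0.16 (quasi-likelihood) in R 4.3.3 on the 9 LV libraries, and genes with a fold change above 1.5 and an adjusted p (Benjamini-Hochberg) below 0.1 were called. LV libraries held 22552581 to 46236771 counts, and low genes are limited by counting error. The scripts were tested on simulated data.

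Same-numbered libraries of 4 and 8 h deviated together (r over 0.1 for every pair), from which the pairing was taken. The labels do not state what a number means, and the libraries of 0 h did not follow it. Named genes were, in 23 function lists and 11 marker lists, up to 4 members with the smallest unadjusted p; the 10 higher and 10 lower protein-coding genes of at least 5 CPM without overlap and with the smallest unadjusted p; a list of genes fixed by name; and genes marked as chosen after their values were seen, including further list members called with the block. Some items that the rule names are not reported here. Genes, lists and tests were chosen with earlier results of these data known. DESeq2 1.42.0, other scalings, filters, offsets, libraries and each library left out were tried as alternatives. Python 3.11.15 with pandas 2.3.3 was used for tables, and promoter sequences are from RefSeq (GRCm38.p6).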

Additional observations from a re-analysis of the deposited data

Results flagged for a closer look

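The step of 8 h against 4 h differed between the ventricles in a test of that difference (edgeR with hearts as a block, 18 libraries), which is why the following results deserve a closer look. The step was lower in LV than in RV for 54 genes and higher for 5, while without the block 0 were called and 215 had an unadjusted p under 0.05. Of the genes named above, Hspa1a had a log2 difference between the steps of -1.96, Ptgs2 of -1.19, Cgas of -0.70 and Isg15 of -0.68 (LV minus RV). In Hspa1a, Isg15 and Cgas the library numbered 3 was the highest of the LV libraries at both times, and in Ptgs2 at 8 h. The cause of these differences was not tested.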

How the results depend on the processing

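Without a block, edgeR called 0 genes in LV with the libraries of 0 h left out of the fit, with all 18 libraries (784 genes at an unadjusted p under 0.05), with other size factors, without the expression filter, without mitochondrial genes, with length offsets or the length trend removed, with Ddx3y-type Y-linked RNA as a covariate, and without the fold threshold. DESeq2 called 8 higher and 63 lower. Leaving out 1 library, or both of a number, gave 0 to 6 higher and 0 to 15 lower genes, and between 487 and 2097 genes passed an unadjusted 0.05.

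Once the numbers entered as a replicate block, 9 LV libraries gave 1 lower gene (1838 at an unadjusted p under 0.05) and 6 LV libraries gave 255 higher and 140 lower genes (2429). In the 6 libraries the calls were 310 and 143 without both libraries numbered 1, 23 and 24 without those numbered 2 (1944), and 272 and 344 without those numbered 3 (2645). They were 192 and 68 with the length trend removed (2201), 225 and 158 with effective length offsets (2280), 229 and 115 with RLE size factors (2466), 236 and 126 without mitochondrial genes (2446) and 250 and 163 with DESeq2 (1806). The block called 238 genes in RV and 59 for the difference between ventricles. The alternatives of the blocked fit in 6 libraries were added after seeing the data, and causes of these changes were not tested.

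Of 76 named genes, 60 kept their direction under all 31 alternatives. Myh6 turned to 0.14 with effective length offsets and to 0.13 with these and the replicate block, and Hspa1a to 0.0026 with the length trend removed. Over the fits that left out libraries, the log2 difference ranged from -0.59 to 3.10 for Gbp2, -0.94 to 3.13 for Cxcl10, -0.45 to 2.42 for Ifit1, -0.56 to 2.13 for Isg15, -0.72 to 2.44 for Irf7 and -1.39 to 2.75 for Mx1. It ranged from -0.19 to 1.76 for Bst2, -0.29 to 1.997 for Oas2, -0.012 to 1.39 for H2-T23, -0.32 to 1.88 for Casp1, -0.64 to 2.37 for Mlkl and -0.52 to 2.85 for Dhx58. It was -1.16 to 0.32 for Hspa1a, -0.53 to 0.064 for Ptgs2 and -0.47 to 3.14 for Hbb-bs. Each group had 3 libraries, and the block left 2 residual degrees of freedom.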
